A study of Mus musculus with 8 samples.

Results

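The 30 genes described here are enzymes and transporters of glycolysis and other targets of the hypoxia-inducible factors (HIF), read on arrays of sorted mouse mammary tumour cells. The rule lists them by name, with no threshold on measured values, and splits them into 17 genes of glucose entry, glycolysis and lactate handling and 13 other HIF targets. All 30 were on the array and all 30 were among the 20265 genes tested. They had 55 probes, of which 53 passed the filter on dim signal. The mice were bitransgenic: a GFP reporter under the s-SHIP promoter had been crossed with C3(1)-Tag, and every group shared both transgenes. Cells were lineage-negative and CD49f-positive, and the design set those with GFP (GFP-positive) against those without it (GFP-negative). Each population had 4 arrays, numbered 566, 567, 573 and 631 in the titles, with each number read as 1 tumour. The labels give no strain, age or list of lineage antibodies, and do not say that each number was a separate animal, so p-values may measure only the spread between these samples.

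As background, the s-SHIP promoter is an internal promoter of Inpp5d that is used in stem cells of several tissues, and the C3(1) sequence drives the SV40 large T antigen in mammary and other epithelia. When oxygen is plentiful, prolyl hydroxylases mark the HIF alpha subunits for removal by the von Hippel-Lindau protein. When it is scarce, the alpha subunits pair with Arnt and bind short core motifs in DNA, and glucose transporters, nearly every glycolytic enzyme and factors for vessel growth are among their known targets. Glycolytic genes are also driven by other signals, and high glycolysis in the presence of oxygen is common in tumours.

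The HIF core motif, written ACGTG or GCGTG, was looked for on both strands in the 250 bases before each listed start site, since it is the site that HIF binds. RefSeq windows of build GRCm38.p6 matched 29 members; Ndrg1 had no entry. At least 1 window held a motif for 27 of 29 members (93.1%) against 41.5% of all 27025 genes with a window. Counted by window, the shares were 34 of 42 (81.0%) against 38.6% of 32851. Both motifs contain CG, and the median number of CG pairs was 15 in the members' windows and 6 in all windows; its part in the difference was not tested. The promoters below are those of the 5 motif-holding members with the smallest unadjusted p between populations in limma without a block. Those of Ldha and Bnip3, which hold the most motifs, follow. Each runs 5′ to 3′ on the strand of the gene and ends just before the start site, and capitals mark the motifs, with CAC runs being the same motifs on the other strand. For Vegfa and Pfkfb3 the window lies before the more downstream of 2 listed starts, inside the gene. For Vegfa the more upstream window held no motif, so Vegfa counts among the 27 only through the window inside the gene.
Ankrd37: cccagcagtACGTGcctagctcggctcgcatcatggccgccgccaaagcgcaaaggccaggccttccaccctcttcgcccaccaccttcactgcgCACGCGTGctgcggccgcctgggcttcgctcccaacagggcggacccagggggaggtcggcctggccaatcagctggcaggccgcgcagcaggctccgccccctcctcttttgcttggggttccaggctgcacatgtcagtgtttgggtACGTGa
Vegfa: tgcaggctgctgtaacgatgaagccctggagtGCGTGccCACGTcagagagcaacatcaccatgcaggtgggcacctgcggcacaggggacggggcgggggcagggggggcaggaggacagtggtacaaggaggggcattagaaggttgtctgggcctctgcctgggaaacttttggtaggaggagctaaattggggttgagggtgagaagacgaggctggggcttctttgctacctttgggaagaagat
P4ha1: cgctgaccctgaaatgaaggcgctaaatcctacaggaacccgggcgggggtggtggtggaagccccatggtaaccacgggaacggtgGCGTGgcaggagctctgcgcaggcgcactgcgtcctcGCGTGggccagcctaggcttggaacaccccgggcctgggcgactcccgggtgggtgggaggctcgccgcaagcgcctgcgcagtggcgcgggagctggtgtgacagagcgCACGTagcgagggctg
Adm: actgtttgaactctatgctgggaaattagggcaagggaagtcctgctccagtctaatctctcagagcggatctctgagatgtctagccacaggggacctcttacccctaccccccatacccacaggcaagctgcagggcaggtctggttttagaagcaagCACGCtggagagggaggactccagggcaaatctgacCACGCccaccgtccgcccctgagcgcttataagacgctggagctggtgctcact
Pfkfb3: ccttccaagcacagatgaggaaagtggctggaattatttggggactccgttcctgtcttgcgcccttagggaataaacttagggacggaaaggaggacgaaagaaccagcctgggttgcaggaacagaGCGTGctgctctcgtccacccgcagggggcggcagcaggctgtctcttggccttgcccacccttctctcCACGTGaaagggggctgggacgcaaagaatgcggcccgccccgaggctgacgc
Ldha: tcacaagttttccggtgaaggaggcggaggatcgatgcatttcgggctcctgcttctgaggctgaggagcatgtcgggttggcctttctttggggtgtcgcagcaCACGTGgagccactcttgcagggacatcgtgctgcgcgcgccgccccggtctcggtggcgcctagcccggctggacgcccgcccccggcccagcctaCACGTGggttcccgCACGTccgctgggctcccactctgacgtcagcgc
Bnip3: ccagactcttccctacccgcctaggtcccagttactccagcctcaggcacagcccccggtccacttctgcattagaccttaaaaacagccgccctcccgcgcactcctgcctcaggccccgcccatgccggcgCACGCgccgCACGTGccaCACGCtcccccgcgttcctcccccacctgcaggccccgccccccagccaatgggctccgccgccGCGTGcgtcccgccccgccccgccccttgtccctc
Their positions were chr8:45999851-46000100 on the minus strand for Ankrd37, chr17:46025164-46025413 minus for Vegfa, chr10:59323046-59323295 plus for P4ha1, chr7:110627407-110627656 plus for Adm, chr2:11502091-11502340 minus for Pfkfb3, chr7:46845554-46845803 plus for Ldha and chr7:138909507-138909756 minus for Bnip3. Overlapping matches were counted separately, so that CACGTG counts as 2. Ldha held 5 matches and Bnip3 5, Ankrd37 held 4, P4ha1 and Pfkfb3 held 3 each, and Vegfa and Adm held 2 each. A match is a description of the letters, and binding was not measured here.

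On 7 arrays, 53.5% to 58.5% of gene spots stood well above background, but only 34.1% did so for GFP-positive cells of 573. On that array the dimmest spot called well above background had an intensity of 142 units, against 13.4 to 23.5 on the others. All arrays were on 1 slide, with the 4 GFP-positive arrays in 1 slide column and the 4 GFP-negative arrays in the other, so the population and the column of the slide cannot be told apart. Inpp5d, the host gene of the reporter's promoter, was higher by 1.94 (SE 0.62) on the log2 scale in GFP-positive cells, by 2.73, 1.66, 1.15 and 2.21 in tumours 566, 567, 573 and 631, but it was not well above background in the GFP-positive cells of 573. Levels below are log2 intensity relative to the array's 75th percentile, so that 0 is that percentile, and levels of different genes are not compared.

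The first comparison was GFP-positive against GFP-negative cells. Of the 30 genes, 29 had a lower mean in GFP-positive cells, and the median difference was -0.39 on the log2 scale, but no gene passed the test. The exception in direction was Car9, at 0.11 (SE 0.40). SEs are from the fit without the tumour as a block unless stated, so they include the spread between tumours. The block uses the pairing of same-numbered arrays and takes that spread out. With the block the SE was smaller for every member, 0.14 against 0.40 for Hk1, 0.27 against 0.54 for Slc2a1 and 0.28 against 0.29 for Ankrd37. Genes as a whole leaned the same way: 72.6% of the 20265 tested were lower, with a median of -0.10. limma without a block called 0 genes at an adjusted p of 0.05, which is 0% of those tested, and 0 members; an unadjusted p under 0.05 was reached by 194 genes and by 0 members. With the tumour as a block, the adjusted test again called 0 genes and 0 members. An unadjusted p under 0.05 was then reached by 1300 genes (6.42%) and 7 members, which were Hk2, Gpi1, Pfkl, Slc16a3, Vegfa, P4ha1 and Ero1l. Hk2 and P4ha1 passed the filter on dim signal only through GFP-negative cells, where they were higher. With a common floor on dim values added to the block, 1240 genes and 3 members reached that p. The smallest adjusted p of a member was 1.00 without and 0.747 with the block. The size of the general lean depended on the scaling, from a median over all genes of -0.16 with median scaling to 0.01 with the 75th percentile taken over probes well above background on all 8 arrays. Without the filter on dim probes the lean turned the other way: 40.3% of 45586 genes were lower, with a median of 0.14. Relative to the median of all genes, the members' median lay between -0.32 and -0.21 under the scalings tried. It was -0.53 without the filter on dim probes and -0.01 without GFP-positive 573.

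The difference between the populations was not alike in the 4 tumours. In tumour 573 all 30 members were lower in GFP-positive cells, with a median of -1.04, and in tumour 631 it was 29 of 30, with a median of -0.53. In tumour 567 it was 24 of 30 with a median of -0.09, and in tumour 566 only 11 of 30, with a median of 0.05. The same counts over all genes were 74.0%, 70.4%, 54.6% and 49.9%, with medians of -0.23, -0.22, -0.03 and 0.00064. Whether the tumours differ in this cannot be tested with 1 array per population in each.

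**Figure D1:**
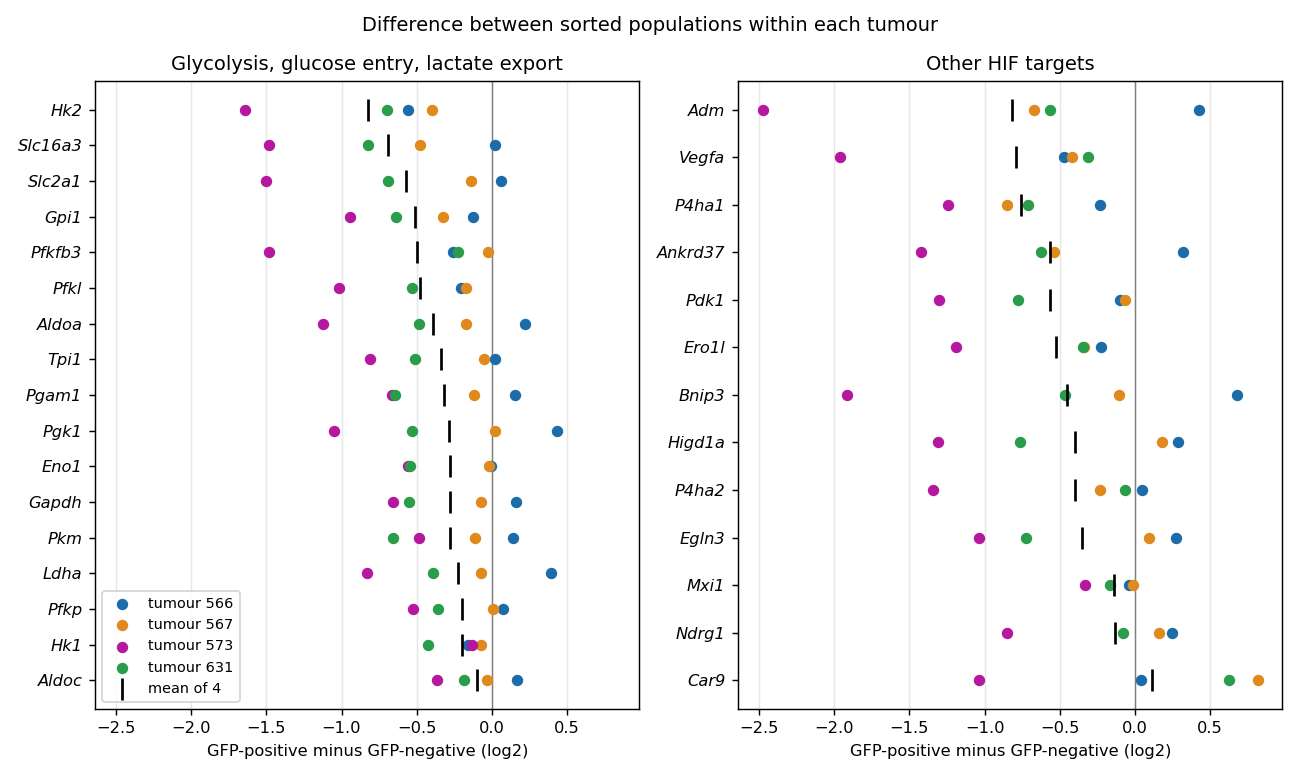
Difference GFP-positive minus GFP-negative (x axis, log2) for each of the 30 genes (y axis), with 1 point per tumour and a bar at the mean of 4. Most points of tumour 573 lie farthest to the left, while those of tumour 566 lie on both sides of 0.

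GFP-positive 573 was the lowest array for 27 members, and GFP-negative 631 was the highest for 20. Without the first of these arrays, 22 members were lower and their median was -0.08, beside -0.07 for all genes. Without the second, 24 were lower with a median of -0.20. Without both arrays of 573 the median was -0.18 with 27 lower. With array weights it was -0.16 with 25 lower, beside -0.06 for all genes, and 13 of the 30 members changed sign under at least 1 alternative. Among the 13279 genes with a probe well above background on all 8 arrays, the 25th to 75th percentiles of the differences in tumour 573 ran from -0.37 to -0.0036, and 24 of 28 members were below it. In tumour 631 the range was -0.42 to 0.03 and 18 of 28 were below. In tumour 567 it was 9 of 28, and in tumour 566 it was 1 of 28. For Pdk1 this set holds a dimmer probe of opposite sign.

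**Figure D2:**
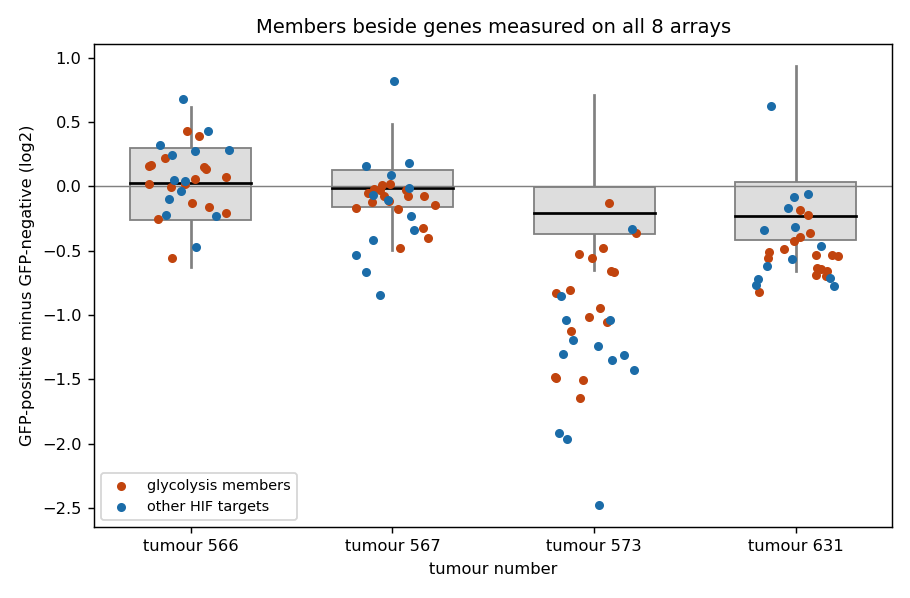
Difference GFP-positive minus GFP-negative (y axis, log2) in each tumour (x axis). Grey boxes give the 25th to 75th percentile of the 13279 genes with a probe well above background on all 8 arrays, with whiskers to the 5th and 95th percentiles and a line at the median, and points are the 30 members; in tumour 573 most points lie under the box, whose lower edge is at -0.37.

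Glucose enters through Slc2a1, the transporter GLUT1. Its levels in tumours 566, 567, 573 and 631, the order used throughout, were 5.54, 5.42, 3.47 and 5.83 in GFP-positive cells and 5.48, 5.56, 4.98 and 6.52 in GFP-negative cells. The populations overlapped, and the low array was GFP-positive 573. The difference was -0.57 (SE 0.54). Hexokinases trap glucose as its phosphate. Hk2, the inducible form, had 0.70, 0.52, -2.11 and 1.33 in GFP-positive cells and 1.26, 0.92, -0.47 and 2.03 in GFP-negative cells, and it was not well above background in the GFP-positive cells of 573. It was lower in GFP-positive cells of every tumour, with differences of -0.56, -0.40, -1.64 and -0.70, and the mean was -0.82 (SE 0.78). In the fit blocked by tumour the SE was 0.23 and the unadjusted p 0.011, but limma's adjusted p was 0.747. With a common floor on dim values the mean difference of Hk2 was -0.51. Hk1, the form found in most tissues, had 3.57, 4.50, 3.46 and 4.56 and 3.73, 4.57, 3.59 and 4.98 in the same order of populations. Its groups overlapped and differed by -0.20 (SE 0.40). A second Hk1 probe, at 0.54, was above background on 0 arrays.

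Gpi1 converts glucose phosphate to fructose phosphate and differed by -0.51 (SE 0.47), and was lower in GFP-positive cells of all 4 tumours. Phosphofructokinase is the committed step. Its liver-type subunit Pfkl had levels of 2.56, 2.59, 0.99 and 2.51 in GFP-positive cells and 2.76, 2.76, 2.01 and 3.04 in GFP-negative cells. It was lower in each tumour, with a mean difference of -0.48 (SE 0.40), and GFP-positive 573 stood far under the other 3 arrays of its group. The platelet-type subunit Pfkp differed by -0.20 (SE 0.31). Pfkfb3 makes fructose bisphosphate that activates phosphofructokinase. Its populations did not overlap, but how many of all genes share this was not counted. It had 1.13, 1.17, -0.29 and 1.14 in GFP-positive cells and 1.38, 1.20, 1.19 and 1.36 in GFP-negative cells. The gap between the groups was narrow, 1.17 against 1.19, and the difference of -0.50 (SE 0.34) came largely from tumour 573. Its other passing probe, well above background on 7 arrays, gave 0.52.

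The aldolases, which split the hexose, differed by -0.39 (SE 0.44) for Aldoa and -0.10 (SE 0.50) for Aldoc, and Aldoc turned to 0.0049 with quantile normalization and 0.01 with the percentile over probes well above background on all arrays. Tpi1, which interconverts the trioses, had 7.52, 6.96, 6.14 and 6.97 in GFP-positive cells and 7.50, 7.01, 6.95 and 7.47 in GFP-negative cells. These overlapped, with a difference of -0.34 (SE 0.31), and its other 2 probes gave -0.37 each. Gapdh, the dehydrogenase often used as a reference gene, differed by -0.28 (SE 0.30), and its 6 probes ran from -0.35 to -0.24. Pgk1, the first step that yields ATP, differed by -0.28 (SE 0.35). Pgam1, the phosphoglycerate mutase, had levels of 6.02, 6.28, 5.08 and 7.03 and 5.87, 6.40, 5.75 and 7.67 in GFP-positive and GFP-negative cells. Its groups overlapped, and both arrays of tumour 631 were higher than the other arrays of their population. Pgam1 differed by -0.32 (SE 0.52). Eno1, the enolase, and Pkm, the pyruvate kinase, differed by -0.28 (SE 0.38) and -0.28 (SE 0.49).

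The final members of the pathway make and export lactate. Slc16a3, the lactate exporter MCT4, had 5.78, 5.40, 3.26 and 5.63 in GFP-positive cells and 5.76, 5.88, 4.75 and 6.46 in GFP-negative cells. The groups overlapped, and tumour 566 did not show the lower level seen in the other tumours. The difference was -0.69 (SE 0.59). Ldha, which makes lactate, differed by -0.23 (SE 0.30), with 0.39 in tumour 566 and -0.83 in tumour 573. Across the 17 genes of the pathway all means were lower, with a median of -0.32, and 6 were lower in all 4 tumours. Over all 20265 genes tested, 72.6% had a lower mean and 3034 were lower in all 4 tumours.

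Among the 13 other HIF targets the median was -0.45 and 12 were lower. Vegfa, the vessel growth factor, had levels of 4.32, 4.01, 2.36 and 3.48 in GFP-positive cells and 4.79, 4.43, 4.33 and 3.79 in GFP-negative cells. It was lower in GFP-positive cells of every tumour, though the groups overlapped, with a difference of -0.79 (SE 0.42). Its other 3 probes gave -0.60, -0.47 and -0.39. Adm encodes adrenomedullin, a peptide that widens vessels. Its levels were 2.09, 0.88, -0.06 and 2.31 and 1.66, 1.55, 2.42 and 2.87 in GFP-positive and GFP-negative cells. Tumour 566 went the other way from the remaining tumours, at 0.43 against -2.48 in 573, and the mean was -0.82 (SE 0.55). Ankrd37, an ankyrin-repeat protein and a widely used hypoxia marker, had 2.43, 2.06, 1.96 and 2.40 in GFP-positive cells and 2.11, 2.59, 3.39 and 3.02 in GFP-negative cells. The GFP-positive arrays were close together and the groups overlapped only through tumour 566, where the difference was 0.32. Over the tumours it was -0.57 (SE 0.29), with the smallest unadjusted p of the 30 in limma without a block, 0.087. With the tumour as a block its unadjusted limma p was 0.084, and P4ha1 had the smallest of the members, 0.0068.

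P4ha1 and P4ha2 are catalytic subunits of the collagen prolyl hydroxylase. P4ha1 had 0.87, 1.24, -0.64 and 0.86 in GFP-positive cells and 1.10, 2.09, 0.60 and 1.57 in GFP-negative cells, and was not well above background in the GFP-positive cells of 573. It was lower in all 4 tumours, with a mean difference of -0.76 (SE 0.46), and its second probe gave -0.86. P4ha2 differed by -0.40 (SE 0.32). Ero1l, an oxidase of the endoplasmic reticulum now named Ero1a, differed by -0.52 (SE 0.39) and was lower in all 4 tumours.

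Pdk1 restrains pyruvate dehydrogenase and so the entry of pyruvate into the citric acid cycle. Its levels were 0.69, 1.99, -0.74 and 1.38 in GFP-positive cells and 0.79, 2.06, 0.56 and 2.15 in GFP-negative cells. The groups overlapped, GFP-positive 573 was not well above background, and the difference was -0.56 (SE 0.62). Its probes disagreed: of the other 3, the passing ones gave -0.73 and 0.26, and 1 that did not pass gave 0.24. Bnip3, a mitochondrial protein of mitophagy, had 4.35, 3.89, 2.63 and 5.59 and 3.67, 3.99, 4.54 and 6.06 in GFP-positive and GFP-negative cells. It differed by -0.45 (SE 0.69), and by 0.68 and -1.92 in tumours 566 and 573. Higd1a, a mitochondrial protein, differed by -0.40 (SE 0.36), positive in tumours 566 and 567 and negative in the others.

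Egln3 is a prolyl hydroxylase of the HIF alpha subunits and itself a HIF target. It had 0.38, 1.18, 0.87 and 2.09 in GFP-positive cells and 0.11, 1.09, 1.90 and 2.81 in GFP-negative cells. The groups overlapped widely, with a difference of -0.35 (SE 0.58), and tumour 566 was lowest and 631 highest in both populations. Mxi1, a repressor of the Myc network, and Ndrg1, a stress-response protein, differed by -0.14 (SE 0.38) and -0.13 (SE 0.30). Car9, the carbonic anhydrase that acidifies the outside of hypoxic cells, was higher in GFP-positive cells of 3 tumours, with 0.04, 0.82 and 0.63, and lower in 573, with -1.04. Its second probe averaged -0.08.

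**Figure D3:**
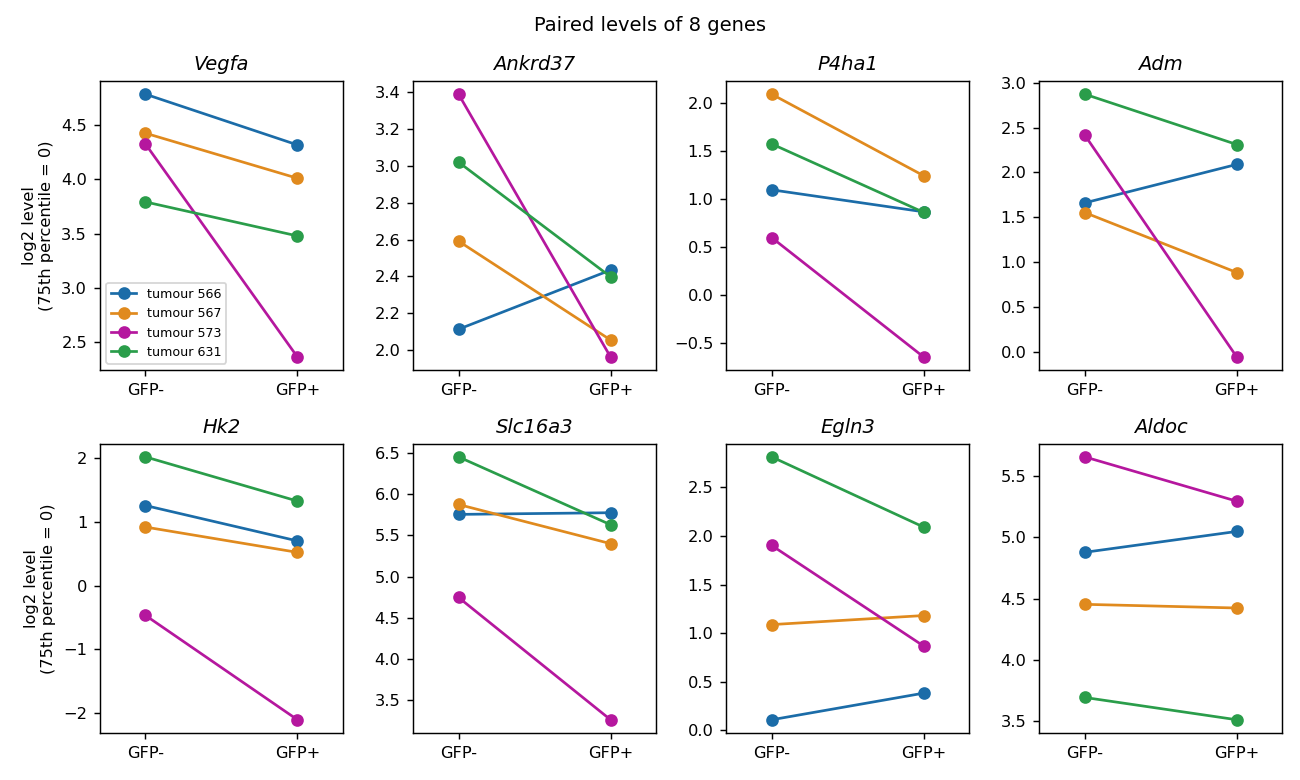
Levels (y axis, log2 relative to the array's 75th percentile) of 8 genes in GFP-negative and GFP-positive cells (x axis), with 1 line per tumour. Vegfa, P4ha1 and Hk2 slope down in all 4 tumours, Adm and Ankrd37 slope up in tumour 566, and Aldoc keeps its order of tumours in both populations.

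The second comparison was between the tumours, where calls were made, unlike between the populations. By the mean of the 2 populations, most members were highest in tumour 631 and lowest in tumour 573, and Hk2 and Slc16a3 showed some of the widest spans. A limma F-test over the 4 tumours, with the population as a term, called 14 of 30 members (46.7%) at an adjusted p of 0.05, against 28.2% of all genes. Of the 17 glycolytic genes 10 were called, and of the 13 others 4. Tumour 631 had the highest mean of the 2 populations for 20 members and 573 the lowest for 24. The test sets tumours against what is left between the 2 populations of a tumour, and concerns these 4 tumours alone.

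Hk2 had tumour means of 0.98, 0.72, -1.29 and 1.68 (F-test adjusted p = 0.00895), and its span of 2.97 was the widest of the 30. Gpi1 had 6.50, 6.53, 6.12 and 7.80 (adjusted p = 0.018) and Pgam1 5.94, 6.34, 5.42 and 7.35 (adjusted p = 0.016). For these 3 the level in tumour 631 was above that of the other tumours. Pkm had 6.85, 7.55, 6.14 and 7.89 (adjusted p = 0.016) and Slc16a3 5.77, 5.64, 4.0 and 6.04 (adjusted p = 0.025). Slc2a1, Hk1, Pfkl and Eno1 were the other glycolytic genes called with tumour 573 or 566 lowest. Among the other targets Pdk1 had 0.74, 2.02, -0.09 and 1.77 (adjusted p = 0.019) and P4ha1 0.98, 1.66, -0.02 and 1.22 (adjusted p = 0.024), both highest in tumour 567. Egln3 had 0.24, 1.13, 1.38 and 2.45 (adjusted p = 0.026), lowest in tumour 566, and Mxi1 was also called. Vegfa, at 4.55, 4.22, 3.35 and 3.64, was not called, and its second probe put 567 highest in place of 566. Bnip3 spanned 2.24 and Adm 1.41 without a call, and Ankrd37 spanned the least, 0.43.

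Aldoc ran against the other enzymes. Its tumour means were 4.96, 4.44, 5.48 and 3.60 (adjusted p = 0.00986), so that 573 was highest and 631 lowest. Its second probe gave 2.96, 2.39, 3.47 and 1.52, the same order. Aldoa, the other aldolase, had 8.55, 8.51, 7.51 and 9.03, with 631 highest and 573 lowest, and missed the threshold (adjusted p = 0.054).

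**Figure D4:**
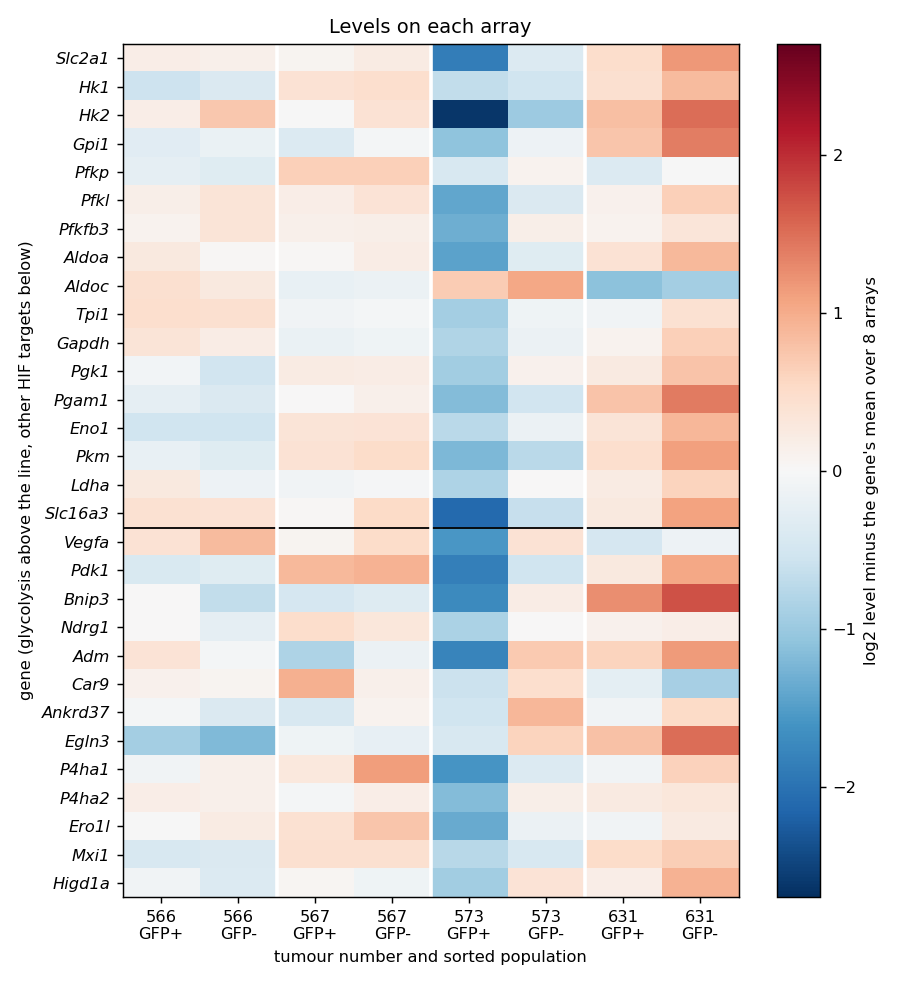
Level of each of the 30 genes (rows) on each of the 8 arrays (columns, by tumour number and population), as the log2 difference from the gene's own mean over the arrays (colour). The column of GFP-positive cells of tumour 573 is the lowest for 27 genes and that of GFP-negative cells of tumour 631 the highest for 20, while Aldoc shows the reverse order of tumours.

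By pairs of tumours, 573 against 631 gave the most calls. Of the 30 members 15 were called, against 28.5% of genes; 14 were lower in 573 (16.6% of genes), and Aldoc was higher (11.9% of genes). Those lower were Slc2a1, Hk1, Hk2, Gpi1, Pfkl, Aldoa, Pgam1, Eno1, Pkm, Slc16a3, Pdk1, Bnip3, P4ha1 and Mxi1. Between 567 and 573, 10 were called (17.7% of genes), 9 of them higher in 567 (9.85% of genes) and Aldoc lower (7.88% of genes). Between 566 and 631, 8 were called (18.9% of genes): Hk1, Gpi1, Pgam1, Eno1, Pkm, Egln3 and Mxi1 were lower in 566 (10.8% of genes) and Aldoc was higher (8.06% of genes). Between 566 and 567 only Hk1 and Mxi1 were called (8.9% of genes), and between 566 and 573 only Hk2 (1.79% of genes). Between 567 and 631 limma called 0 members (3.1% of genes), with 8 members and 4675 genes at an unadjusted p under 0.05. The count of 14 moved with the processing and with single arrays. It was 25 with median scaling (31.9% of genes), 4 with a common floor on dim values (7.69% of genes) and 0 without the filter on dim probes (0% of genes). Without the GFP-positive or without the GFP-negative array of tumour 567 it was 2, or 6.67% of members against 6.81% and 6.31% of genes, so that the members' share was near that of all genes. Without GFP-negative 631 it was 5, or 16.7% against 14.6% of genes. Without GFP-positive 573 it was 8, or 26.7% against 14.8%, and without GFP-negative 573 it was 22, or 73.3% against 24.2%. Hk2 and Aldoc were called in each of the 8 single-array omissions.

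Genes around these pathways showed the same limits: limma called 0 of them between the populations, and an unadjusted p under 0.05 was reached by 0 of the genes in each list, and with the tumour as a block by 3, 3, 4, 0 and 0 in the order below. Of 12 genes of HIF subunits and oxygen sensing 10 were measured, 9 of them lower (90%, against 72.6% of all genes). Siah2, a ligase for the prolyl hydroxylases, differed by -0.55 (SE 0.39), and Arnt, the HIF beta subunit, by -0.33 (SE 0.28). Between tumours 5 of the 10 were called (50%, against 28.2% of all genes). Hif1a itself, named after its values were seen, differed by -0.13 (SE 0.61) between populations and had tumour means of 2.41, 3.00, 1.74 and 4.08 (F-test adjusted p = 0.0089). Of 22 further HIF targets 20 were measured and 13 were lower (65%, against 72.6% of all genes). Ddit4, a stress-induced inhibitor of mTORC1, differed by -0.67 (SE 0.35), and Kdm3a, a histone demethylase, by -0.40 (SE 0.32). Of the 20 further targets 10 were called between tumours (50%, against 28.2% of all genes).

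Of 21 other glycolytic isozymes and regulators 16 were measured and 11 were lower (68.8%, against 72.6% of all genes). Eno2, the neuronal enolase, differed by -0.95 (SE 0.53), and Slc2a3, the transporter GLUT3, by -1.03 (SE 0.61), both lower in all 4 tumours. Slc2a3 was well above background on only 3 GFP-positive arrays, so it passed the filter only through GFP-negative cells. Between tumours 10 of the 16 were called (62.5%, against 28.2% of all genes). Of 13 genes of pyruvate entry into mitochondria 6 were lower (46.2%), with a median of 0.0015. In tumours 573 and 631 it was 9 of 13 each, beside 74.0% and 70.4% of all genes. Dlat, a subunit of pyruvate dehydrogenase, differed by 0.52 (SE 0.30), and Pdp2, a phosphatase that activates it, by -0.17 (SE 0.26). In the pentose phosphate pathway 6 of 7 were lower (85.7%), with a median of -0.16. Pgls differed by -0.28 (SE 0.31) and Taldo1 by 0.19 (SE 0.23). The counts called between tumours in these lists were 4 and 3 (30.8% and 42.9%, against 28.2% of all genes).

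Markers of other cell types also differed between the populations, and their part in the members' values was not tested. In bulk RNA of sorted cells, fewer cells of a type and less RNA per cell cannot be told apart. Pericyte markers were lower in GFP-positive cells for 7 of 8, with a median of -1.33, Acta2, also in the basal list, being the exception, and their mean level ran from -1.13 to 0.74 in GFP-positive and from 0.93 to 1.71 in GFP-negative cells. Of 8 macrophage markers 6 were measured and all 6 were lower, with a median of -0.86 and levels of -1.35 to -0.38 against -0.46 to 0.76. C1qa, C1qb, Aif1 and Fcer1g passed the filter on dim probes only through GFP-negative cells, as did every pericyte marker but Acta2. The counts for these 2 lists are therefore not independent of the filter, and 72.6% of all genes tested were lower. Of 8 endothelial markers 4 were measured, all 4 with a higher mean, at levels of -1.59 to 2.90 against -1.84 to -0.45. The tumours were not alike: their median differences were 3.79, 1.44, -0.04 and 0.25, and 2 of 4 were lower in each of 573 and 631. Fibroblast markers were higher for 5 of 7 measured, at 0.28 to 4.48 against 1.02 to 4.03, with medians by tumour of 2.20, -0.28, -0.19 and 1.91. Luminal epithelial markers had a higher mean for 8 of 8, at 3.1 to 4.06 against 0.73 to 3.77. The lowest value was GFP-negative 631, the array where 20 members were highest. By tumour the luminal medians were 0.22, 0.67, -0.26 and 3.36, and 5 of 8 were lower in 573. Basal epithelial markers were higher for 6 of 8, at 2.36 to 4.07 against 1.68 to 3.65. Genes of dissociation stress were lower for 8 of 10, at 5.62 to 6.33 against 5.71 to 6.52. Ptprc, Cd3g, Cd8a, Ms4a1, Hbb-b1, Alas2 and Slc4a1, of lymphoid and erythroid cells, were above background on 0 arrays, while Cd3e and Cd4 were measured and differed by -0.24 (SE 0.25) and -0.25 (SE 0.17). Hba-a1, a globin gene of erythroid cells, was well above background on 7 arrays and differed by 0.22 (SE 0.62), with 2.29 in tumour 566.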

How the data were processed

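The deposited values are spot intensity from 8 arrays labelled with Cy3, which the authors made with Agilent Feature Extraction, version 10.7.3.1 according to the submitters' processing notes and, per the file headers, with background subtracted. The deposited series-wide table held the same intensity in 62976 of 62976 spots of every array, on a linear scale and neither centred nor a ratio (medians 23.6 to 36.6). The other per-sample columns numbered 0.

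Dropping control and outlier spots, then averaging each probe's spots, kept 56555 of 56605 gene probes. Accessions were matched without versions to RefSeq symbols (GRCm38.p6), which named 32969 probes. Log2 intensity minus each array's 75th percentile over gene probes was used. A probe had to be well above background on all 4 arrays of a population, and the brightest probe stood for a gene. Tests used limma 3.58.1 in R 4.3.3 with Benjamini-Hochberg adjustment over 20265 genes, without a block, after a check on simulated data. The simulated differences were larger than the members' mean differences, so the check does not show whether differences of that size would be found. All arrays shared 1 slide and 1 scan. Alternatives changed the scaling, background correction, filter, probe choice or array weights, added the tumour as a block, or left out arrays and tumours.

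All members are named. Values on each array are given for those with the smallest p without a block, the widest span between tumours or an opposite probe past 0.5. Gene lists and members were chosen with earlier results of these data known. Same-numbered arrays deviated together (correlations 0.573, 0.695, 0.642 and 0.741, against at most 0.221 with another number), so the numbers pair the arrays. Normexp used median rather than mean spot signals.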

Additional observations from a re-analysis of the deposited data

Results flagged for a closer look

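In 60 groups of 4 arrays, 1 per member and population, 4 had an array far from the other 3 by Dixon's test at its 95% level, where chance gives about 1 in 20 groups. Gpi1 was at 8.12 in the GFP-negative cells of tumour 631, with the next array at 6.69. In the GFP-positive cells of tumour 573, Pfkl was at 0.99 with the next at 2.51, Pfkfb3 at -0.29 with the next at 1.13, and Slc16a3 at 3.26 with the next at 5.40. That array had 34.1% of gene spots well above background, and its part in these values was not tested.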

How the results depend on the processing

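Members lower in GFP-positive cells numbered between 22 and 30 under all alternatives, and no member was called between populations under any of them. With the tumour as a block (the pairing of same-numbered arrays), 0 genes were called; without tumour 631 the block called 1. Genes called between tumours were 2463 with quantile normalization, 1559 with a common floor and 0 without a filter on dim probes; members called were 25 with median scaling, 4 with the floor and 0 without the filter. Leaving out arrays or tumours gave 1331 to 4956 genes and 2 to 22 members. The cause was not tested. Directions turned for 13 of 30 members under at least 1 alternative. These were Aldoc (0.0049 with quantile normalization, 0.012 with the percentile over probes well above background on all 8 arrays, which was added after seeing the data), Pdk1 (0.26 with probes measured on all 8 arrays), Pfkfb3 (0.014 with the mean of probes), and with array weights Pgam1 (0.043), Bnip3 (0.18), Egln3 (0.096) and Mxi1 (0.020). With arrays or tumours left out, the ranges were -0.18 to 0.50 for Car9, -0.59 to 0.029 for Aldoa, -0.63 to 0.099 for Pgam1, -0.57 to 0.079 for Pkm, -0.43 to 0.011 for Ldha, -0.94 to 0.045 for Bnip3, -0.31 to 0.13 for Ndrg1, -0.32 to 0.094 for Mxi1, -0.43 to 0.25 for Aldoc, -0.41 to 0.058 for Hk1 and -0.80 to 0.097 for Egln3. With the block and a tumour left out, Car9 was at -0.12 without 567 and -0.057 without 631, and without 573 Bnip3 was at 0.037 and Ndrg1 at 0.11. With 4 arrays a population, small differences may go uncalled, and the precision of the arrays themselves was not measured.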
